A study of Mus musculus with 6 samples.

Results

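Conventional type 2 dendritic cells were sought among CD45+ immune cells sorted from mouse brain and profiled by droplet single-cell RNA sequencing. A barcode was taken as a member when its unique molecular identifier (UMI) counts met a rule on 25 genes. The sum over Cd209a, Clec4b1, Ccl17, Olfm1 and Flt3 had to reach 4 and exceed both a microglial sum (Tmem119, Olfml3, Gpr34, Crybb1, Golm1, Slc2a5) and a border macrophage sum (Mrc1, Pf4, Cbr2, Cd163, Lyve1). At most 1 UMI of the lymphocyte genes Cd3d, Cd3e, Cd3g, Trac, Nkg7 and Cd79a and at most 1 of Ccr7 were allowed, and none of Xcr1 or Clec9a. The rule found 151 members among 17089 barcodes kept, of 17362 in the deposited table. The values of those 25 genes chose the members, so they are given below as description and entered no test.

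The healthy brains were wild type for Trp53 and Rbpj. The control gliomas were Trp53 knockout with wild-type Rbpj, and the Rbpj-deleted gliomas were knockout for both genes. Both tumour groups therefore share the loss of Trp53, and no group carried the loss of Rbpj alone. The design text gives the material as pooled, with 9 brains in the healthy group, 15 tumours in the control group and 9 in the Rbpj-deleted group. The extraction protocol, in contrast, speaks of 1 well per mouse. Early gliomas were found by a GFP reporter of Cre activity and micro-dissected. The age of the mice, the Cre driver and the way the tumours were started are not given in the sources used here. Each group had 2 libraries. Whether these 2 were separate animals or parts of 1 pool is not stated. The p-values below therefore measure only how the libraries at hand varied, and that variation may be technical.

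Dendritic cells take up antigen and present it to T cells. The conventional type 2 branch presents mainly on class II molecules to CD4+ T cells, depends on Flt3 signalling and Irf4, and in the healthy brain sits in the meninges and choroid plexus rather than in the parenchyma. It is told from the Xcr1+ Clec9a+ type 1 branch, from mature Ccr7+ dendritic cells and from plasmacytoid dendritic cells, which make type I interferon. Class II genes are constitutively high in dendritic cells and are raised by interferon-gamma in macrophages. Class I genes, which display internal peptides to CD8+ T cells, respond to both kinds of interferon.

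The libraries held 17430763 to 55229031 counts over all barcodes and 756 to 7181 kept barcodes. Members numbered 28 and 25 in the healthy libraries, 18 and 2 in the control tumour libraries, and 42 and 36 in the Rbpj-deleted libraries. The member counts of a library summed to between 278174 and 483959, except for 15124 in control tumour library 2. That library, with its 2 members, was left out of the gene comparisons, so the control tumour group is 1 library there and is assumed to vary as the other groups do. Of the 151 members, 1 had a barcode sequence that was also kept in another library, as had 76 of all kept barcodes. Libraries also stood apart in a way that crossed the groups. H2-Eb1, a class II beta chain, was at 158 CPM (counts scaled to 1e+06 summed member counts of a library) in healthy library 1 and 163 in control tumour library 1, but at 6982, 12303 and 11833 in healthy library 2 and the Rbpj-deleted libraries. H2-Ea-ps, Trim12a and H2-T22 split the libraries the same way. The comparison of Rbpj-deleted with control tumours runs along this split, and the 2 cannot be told apart for such genes.

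The name holds for part of the members. Among the 16 markers of the type that the rule did not read, Mgl2 (a C-type lectin) stood at 1375 CPM over all members, against 159.7 in barcodes chosen as type 1 or Ccr7 dendritic cells, 26.7 in those chosen by monocyte genes, 387 in border macrophages and 9.21 in microglia. Of the 11 unread markers tested against the barcodes chosen by monocyte genes, 6 were higher in the gate and 1 lower, against 5.75% and 5.57% over all genes. The class II alpha chain H2-Aa stood at 8680.4 CPM in the gate and 886 in microglia. It parts the gate less from other cells of tumours. In the tumour libraries it stood at 4393 to 6051 CPM in barcodes chosen by monocyte genes and at 4242 to 6839 in border macrophages. Members were then sorted into 5 kinds by thresholds set after their values were seen. Class II RNA (at least 10 UMIs of H2-Aa, H2-Ab1 and H2-Eb1) with little C1q RNA (under 40 UMIs of C1qa, C1qb and C1qc) was found in 89 members, or 58.9%. Class II with at least 40 C1q UMIs, the complement genes of macrophages, was found in 42 members, or 27.8%. Another 8 had under 10 class II UMIs, and 2 carried oligodendrocyte RNA. The last 10 had at least 2 UMIs of Cox6a2 and Ly6d, genes of plasmacytoid cells, with under 10 UMIs of Mgl2.

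The 89 members with little C1q had Cd209a at 851 CPM, Mgl2 at 1833 and C1qa at 235. In the 42 with C1q, Cd209a was at 450.4 CPM and Mgl2 at 1198, and C1qa reached 7491. Those 42 also carried the macrophage genes Trem2 at 906 CPM, Cx3cr1 at 549, Ccl12 at 610.3 and Ccl8 at 746. They are barcodes with dendritic and macrophage RNA together, and whether each is 1 cell was not tested. In the 10 plasmacytoid-RNA members, Siglech was at 2553 CPM, Ly6d at 1241 and Mgl2 at 61.5. The levels of Ly6d and Mgl2 follow from the sorting into kinds, which read both genes. They passed the rule through Flt3 and Cd209a, at 287 and 246 CPM, while Clec4b1, Ccl17 and Olfm1 were at 0. The 2 myelin-RNA members, 1 in each healthy library, had Mal, a gene of myelinating cells, at 17619 CPM and H2-Aa at 0. They made up 6.74% and 19.4% of their libraries' member counts. Since the label holds only in part, the members are called the Cd209a gate below, after the marker that led in the largest number of them. A UMI of Cd209a was present in 90 of the 151, and the others met the rule through the other 4 markers.

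The kinds were spread unevenly. Members with C1q numbered 9 of 28 and 4 of 25 in the healthy libraries, 1 of 18 in control tumour library 1, and 20 of 42 and 8 of 36 in the Rbpj-deleted libraries. Plasmacytoid-RNA members were 3 and 0, then 5, then 0 and 2 in the same order. At 3 or more UMIs of another lineage's genes, 90 of the 151 were called mixed, most often for border macrophage (69 members) and microglial genes (24 members). Of the border genes, Cd163 was at 70.3 CPM in class II members with little C1q and 17.2 in the other members. Pf4 was at 177 CPM in class II members with C1q and 6.88 in the others. Whether a member called mixed held RNA of 2 cell types was not tested. At the edge of the rule, the 15 members with a marker sum of exactly 4 had Mgl2 at 206 CPM, the 22 barcodes with a sum of 3 that met all other terms had 264, and the 136 with more than 4 had 1474.

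**Figure D1:**
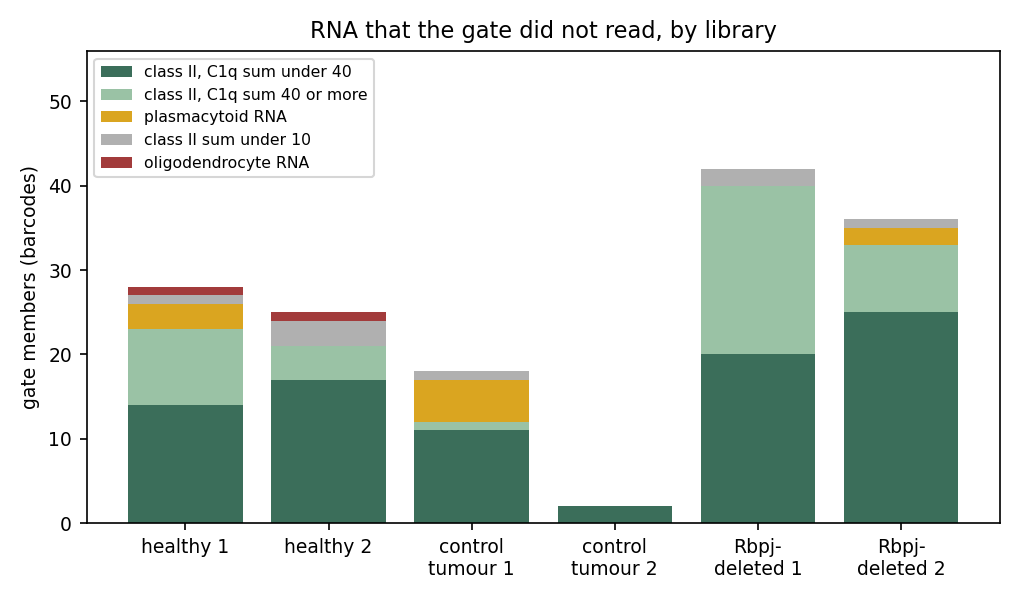
Number of gate members (vertical axis, barcodes) in each of the 6 libraries (horizontal axis), stacked by kind of RNA. Class II members with little C1q are 14, 17, 11, 2, 20 and 25 from left to right, and class II members with C1q are 9, 4, 1, 0, 20 and 8.

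Among the 5 markers read by the rule, the levels varied between libraries. Cd209a, a lectin receptor, gave 389 and 249 UMIs in the healthy libraries, 49 in control tumour library 1, and 184 and 218 in the Rbpj-deleted ones. Clec4b1, another lectin, gave 122 and 109, then 12, then 108 and 100 UMIs. Ccl17, a chemokine that draws Ccr4+ T cells, gave 232 and 60, then 2, then 270 and 172. Olfm1 gave 94 and 137, then 82, then 132 and 81. Flt3, the growth factor receptor, gave 19 and 28, then 32, then 18 and 18. Control tumour library 1 was low in Cd209a, Clec4b1 and Ccl17 and highest in Flt3. Cd209a was the leading marker in 67 members, Clec4b1 in 30, Olfm1 in 26, Ccl17 in 21 and Flt3 in 7.

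The share of kept barcodes in the gate was 0.39% in healthy library 1 (exact Clopper-Pearson 95% interval 0.259 to 0.563) and 0.969% in healthy library 2 (0.628 to 1.43). It was 1.47% (0.875 to 2.32) and 0.265% (0.0321 to 0.952) in the control tumour libraries. In the Rbpj-deleted libraries it was 1.39% (1.0 to 1.88) and 1.55% (1.08 to 2.13). The intervals cover counting error only. Without thinning, the Rbpj-deleted libraries lay above both healthy ones, with means of 1.47% ± 0.110 and 0.679% ± 0.409 (SD, n = 2 each, exact permutation p = 0.33, adjusted over 4 contrasts 0.8, two-sided). The control tumour mean of 0.868% ± 0.854 (SD, n = 2) overlapped both other groups, and the exact permutation p was 1.0 against healthy and 0.667 for Rbpj-deleted against control. Without control tumour library 2 the difference between the tumour groups was −0.0036 percentage points, and without control tumour library 1 it was 1.20. Rbpj-deleted barcodes were deeper than healthy ones, with medians of 9883 and 8035 against 5513 and 6136.5 counts. Thinned to 3000 counts, Rbpj-deleted library 1 (0.7746%) lay below healthy library 2 (0.7944%), and the difference of Rbpj-deleted from healthy went from 0.7888 to 0.3756 percentage points. It was 0.4724 without mixed members and 0.4992 without healthy library 1. Over both tumour groups the mean was 1.17% ± 0.606 (SD, n = 4) and the exact permutation p against healthy 0.4. With 2 libraries against 2, no p under 0.33 can be reached, so no difference in share passed a test. The sort, the dissection and the number of microglia captured all enter this share.

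**Figure D2:**
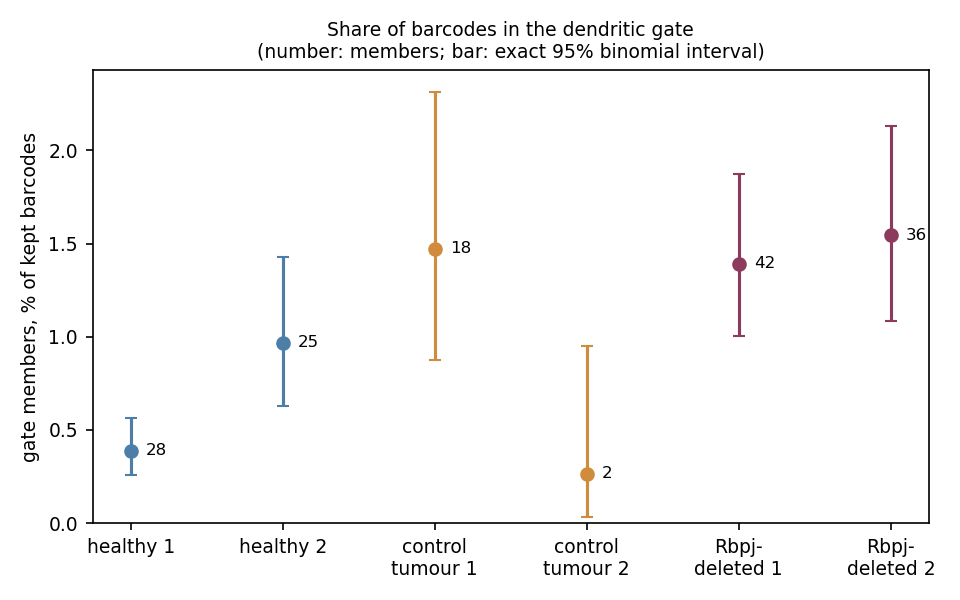
Share of kept barcodes in the gate (vertical axis, percent, from 0) for each library (horizontal axis), with exact 95% binomial intervals as bars. The Rbpj-deleted libraries sit at 1.39% and 1.55%, above the healthy ones at 0.39% and 0.969%, and the control tumour libraries span both at 1.47% and 0.265%.

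Within the gate, tumours and healthy brain differed in the interferon-responsive genes of class I presentation and cell-autonomous defence. Over 6066 genes tested with edgeR's quasi-likelihood test on counts summed per library, 386 (6.36%) passed an adjusted p of 0.05 for both tumour groups against healthy, 158 higher (2.6%) and 228 lower (3.76%). Of the 18 class I genes tested, 16 rose and none fell, with a median log2 fold change of 1.92, against −0.04 over all genes. Of 20 interferon-gamma response genes, 13 rose and none fell, with a median of 4.56, or 3.03 when the 4 genes with no UMI in the healthy libraries are set at their lower bound. Of 30 type I interferon response genes, 21 rose and none fell, with a median of 2.72. Without the 2 myelin-RNA members the counts were 14 of 18, 10 of 20 and 18 of 29 (an alternative chosen after seeing the data), where 205 of 5239 genes (3.91%) were called in all. Without the 90 mixed members they were 14 of 16, 13 of 16 and 18 of 25, where 671 of 3762 (17.8%) were called, 222 higher and 449 lower. DESeq2 called 11 of 18, 9 of 20 and 13 of 30, with 159 of 6066 (2.62%) in all. All 3 lists were known from earlier results of these data.

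The promoters of Gbp5 and Isg15, an interferon-gamma and a type I response gene that rose, are shown as examples that hold a known motif, as the 250 bases before the start site (RefSeq, GRCm38.p6). The letters in capitals match GAAA, any 2 bases and GAAA again, the core of an interferon-stimulated response element, on either strand. The windows are chr3:142496684-142496933 on the plus strand for Gbp5, with the match beginning 165 bases before the start, and chr4:156200819-156201068 on the minus strand for Isg15, with 3 overlapping matches beginning 78, 72 and 66 bases before it.
Gbp5: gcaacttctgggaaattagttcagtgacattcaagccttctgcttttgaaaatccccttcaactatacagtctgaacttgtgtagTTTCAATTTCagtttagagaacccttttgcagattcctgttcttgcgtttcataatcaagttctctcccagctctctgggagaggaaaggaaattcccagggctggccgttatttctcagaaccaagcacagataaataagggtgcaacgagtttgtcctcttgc
Isg15: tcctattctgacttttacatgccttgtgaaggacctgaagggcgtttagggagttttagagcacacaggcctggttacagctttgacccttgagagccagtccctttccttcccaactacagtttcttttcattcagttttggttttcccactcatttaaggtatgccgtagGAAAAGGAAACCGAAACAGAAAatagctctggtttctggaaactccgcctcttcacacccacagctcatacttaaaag
Over windows that also take 50 bases after the start, these letters occur in 1122 of 32544 distinct mouse promoters (3.45%). They occur in 12 of the 20 interferon-gamma genes with a promoter in the table, 16 of 25 type I genes and 5 of 16 class I genes. Letters of a gamma-activated site, TTCNNNGAA, occur in 2710 promoters (8.33%), in 9 of the 20 interferon-gamma genes, 3 of 25 type I genes and 1 of 16 class I genes. Such a match describes the letters and is not evidence of binding.

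Among the class I genes, Tap1, which pumps peptides into the endoplasmic reticulum (chr17:34187553-34197225, plus strand, mm10), was at 21.6 and 47.8 CPM in the healthy libraries. It was at 344 CPM in the control tumour library and 329 and 395 in the Rbpj-deleted ones, a rise of 3.37 ± 0.40 on the log2 scale (SE, adjusted p = 2.8e-05). The 3 tumour libraries were all above the healthy ones. Psmb9, an immunoproteasome subunit, went from 140.2 and 110.5 CPM to 766, 653 and 849 (log2 fold change 2.68 ± 0.35, SE, adjusted p = 6.6e-05). The class I heavy chain H2-K1 went from 780.1 and 433 to 2760.3, 2938 and 2878 CPM (log2 fold change 2.32 ± 0.34, SE, adjusted p = 1.8e-04). Neither Psmb9 nor H2-K1 overlapped between healthy and tumour libraries, as held for 34.2% of all genes tested. H2-Q7, a non-classical class I chain, rose by 3.12 ± 0.41 on the log2 scale (SE, adjusted p = 7.1e-05), and B2m, the light chain shared by all class I molecules, by 1.94 ± 0.32 on the log2 scale (SE, adjusted p = 7.1e-04). Class I heavy chains are near-identical copies, so the split of counts among H2-K1, H2-D1 and the H2-Q genes is uncertain. The genes of the list that did not pass were H2-T22 and the trimming protease Erap1, and H2-T22 follows the library split named above.

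Several interferon-gamma response genes had few UMIs in the healthy members. Iigp1, a GTPase that attacks the vacuoles of intracellular pathogens, was at 0 and 5.97 CPM in the healthy libraries and at 287, 196 and 148 in the tumour ones (log2 fold change 6.02 ± 0.59, SE, adjusted p = 3.5e-06). A UMI of Iigp1 was present in 1 of 53 healthy members, 14 of 20 control tumour members and 36 of 78 Rbpj-deleted members. Serpina3g, a protease inhibitor, showed the same order, with 0 and 5.97 CPM against 316, 174 and 116 (log2 fold change 5.96 ± 0.60, SE, adjusted p = 5.0e-06). Gbp5, a guanylate-binding protein with the promoter shown above, went from 3.6 and 11.9 CPM to 95.8, 136 and 151 (log2 fold change 3.87 ± 0.53, SE, adjusted p = 1.1e-04). Its relative Gbp2b rose by 6.75 ± 0.74 on the log2 scale (SE, adjusted p = 6.3e-05), but 78.0% of its UMIs in the control tumour group came from 1 barcode.

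Type I interferon response genes moved with them. Isg15, a ubiquitin-like protein, was at 64.7 and 20.9 CPM in the healthy libraries and at 908, 929.8 and 593 in the tumour ones (log2 fold change 4.39 ± 0.46, SE, adjusted p = 1.7e-05), with 65.6% of the control tumour UMIs in 1 barcode. Zbp1, a sensor of Z-form nucleic acid, went from 35.9 and 11.9 to 234, 287 and 384 CPM (log2 fold change 3.66 ± 0.44, SE, adjusted p = 2.9e-05). Ifi204, a DNA sensor of a family of close copies, rose by 3.12 ± 0.38 on the log2 scale (SE, adjusted p = 2.9e-05). Plasmacytoid-RNA members were in both healthy and tumour libraries (3 of 53, 5 of 20 and 2 of 78 by group), and Isg15, Zbp1 and Ifi204 kept their call when the plasmacytoid, myelin-RNA and low class II members were left out together (an alternative chosen after seeing the data).

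**Figure D3:**
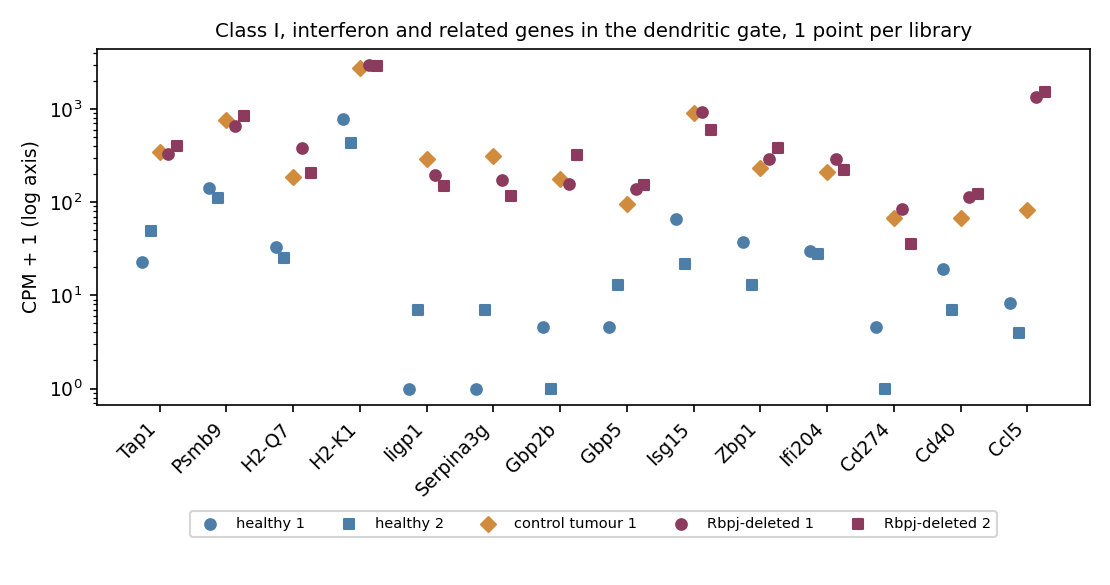
CPM + 1 (vertical log axis) of 14 class I, interferon and related genes (horizontal axis) in the summed members of each of 5 libraries, 1 point per library. For Tap1, Psmb9, H2-K1, Iigp1, Isg15 and Zbp1 the 3 tumour libraries lie above both healthy ones, and for Ccl5 the Rbpj-deleted libraries lie above the control tumour library as well.

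Among costimulatory genes the inhibitory ligand Cd274 and the receptor Cd40 were higher in tumours. Of 15 genes of costimulation and maturation, 4 rose and 1 fell (median 0.74), against 2.6% and 3.76% over all genes (median −0.04). Cd40, the receptor for T cell help, was at 18 and 5.97 CPM in healthy libraries, 67.4 in the control tumour library and 112 and 122 in the Rbpj-deleted ones (log2 fold change 2.99 ± 0.52, SE, adjusted p = 0.0011). Cd274, the inhibitory ligand PD-L1, rose by 5.06 ± 0.85 on the log2 scale (SE, adjusted p = 8.7e-04), from 1 UMI in all healthy members, and DESeq2 did not call it. Cd86, a main costimulatory ligand, was at 53.9 and 68.7 CPM in healthy libraries against 85.2, 136 and 154, and did not pass over both tumour groups (adjusted p = 0.16). The fall was in Fscn1, and it was lost without the 2 myelin-RNA members.

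Of 18 cytokine and chemokine genes, 2 rose over both tumour groups and none fell, against 2.6% and 3.76% over all genes. Ccl5, a chemokine for T cells and monocytes, was at 7.19 and 2.99 CPM in the healthy libraries, 81.6 in the control tumour library and 1349 and 1541 in the Rbpj-deleted ones (log2 fold change 6.10 ± 0.54, SE, adjusted p = 1.1e-06). The Rbpj-deleted members held 1183 UMIs of Ccl5 and the healthy ones 3, a ratio of CPM of 292 (exact 95% counting interval 99.7 to 1418). Il1rn, the antagonist of interleukin-1, had no UMI in healthy members and was at 71, 72.3 and 61.1 CPM in tumour libraries. Against a floor of 3 UMIs over the healthy group it was at least 14.5-fold higher in control and at least 13.8-fold higher in Rbpj-deleted members. Interleukin-1 beta itself, Il1b, ranged from 59.7 to 3302 CPM with a wide spread within the groups and did not pass (adjusted p = 0.49).

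Outside the lists, the largest rises by the rule for named genes included Tnfaip2, a gene induced by tumour necrosis factor, with no healthy UMI and 216, 116 and 75.6 CPM in tumour libraries. That is at least 44.2-fold higher in control and at least 20.2-fold higher in Rbpj-deleted members. C3, the central complement component, rose by 6.48 ± 0.61 on the log2 scale (SE, adjusted p = 5.0e-06), from 0 and 5.97 CPM to 280.3, 426 and 247. The non-coding gene AW112010 rose by 7.09 ± 0.59 on the log2 scale (SE, adjusted p = 5.4e-07). The monocyte marker list (10 genes, 7 tested) had 2 rises and no fall, against 2.6% and 3.76% over all genes. Its summed level was 1021 and 1054 CPM in the healthy, 5290 in the control tumour and 1606 and 2896 in the Rbpj-deleted libraries. Its part in these rises was not tested.

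Over both tumour groups together, class II genes showed no common direction against healthy brain. Of 12 tested, 1 rose and 2 fell, against 2.6% and 3.76% over all genes. H2-Oa, a modulator of peptide loading, rose by 1.90 ± 0.40 on the log2 scale (SE, adjusted p = 0.0054), a call that DESeq2 did not make. The falls were in the protease Lgmn and the lectin Cd209d, which the list also holds. The median was 0.10, against −0.04 over all genes. The tumour groups are given apart here. In Rbpj-deleted against healthy the median was 0.63, and 10 of 12 genes were higher, against 48.7% over all genes. In the control tumour library against healthy the median was −0.24, and 4 of 12 were higher, against 48.5%. Set directly against control tumour library 1, Rbpj-deleted had a median of 0.69, with 11 of 12 higher, against 51.9% over all genes. In control tumour library 1, plasmacytoid-RNA members held 21.5% of member counts and the low class II member 6.52%. Their part, and that of the library split seen in H2-Eb1, was not tested. H2-Aa was at 10191 and 7021 CPM in the healthy libraries, 6674 in the control tumour library and 9912 and 8748 in the Rbpj-deleted ones, so that the groups overlapped (adjusted p = 0.97). Cd74, the invariant chain, ranged only from 15660.4 to 19374 CPM over the 5 libraries. A missed threshold does not show that these levels are equal. Without the 90 mixed members, 3 of the 12 class II genes rose and 1 fell, with a median of 1.21, where 222 of all 3762 genes tested rose and 449 fell.

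The promoters of H2-Aa and H2-Eb1 are shown because these 2 neighbouring class II genes behaved differently here. Capitals mark the Y-box letters GATTGG, on either strand. The windows are chr17:34287824-34288073 on the minus strand, with the letters beginning 49 bases before the start of H2-Aa, and chr17:34305617-34305866 on the plus strand, with them beginning 60 and 35 bases before the start of H2-Eb1.
H2-Aa: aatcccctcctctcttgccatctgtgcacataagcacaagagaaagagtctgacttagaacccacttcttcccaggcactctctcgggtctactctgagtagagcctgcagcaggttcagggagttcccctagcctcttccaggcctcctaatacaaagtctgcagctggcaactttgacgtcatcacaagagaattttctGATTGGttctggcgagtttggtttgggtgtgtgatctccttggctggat
H2-Eb1: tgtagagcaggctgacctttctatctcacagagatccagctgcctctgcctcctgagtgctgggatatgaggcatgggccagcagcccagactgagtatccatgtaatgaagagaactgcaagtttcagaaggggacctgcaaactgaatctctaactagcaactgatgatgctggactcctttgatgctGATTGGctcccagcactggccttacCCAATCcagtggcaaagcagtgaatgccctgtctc
The letters occur in 5234 of 32544 promoters (16.08%) and in 7 of the 12 class II genes with a promoter in the table, against 10 of 16 class I genes. H2-Aa kept a level near that of the other libraries in healthy library 1 and control tumour library 1, where H2-Eb1 was low. These are reference letters, and the libraries' own sequence was not examined.

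In other populations of the same libraries class II genes stood far higher in tumours than in healthy brain, and the difference from the gate was tested as an interaction. The first population was chosen by the monocyte genes Ly6c2, Ccr2, Plac8, Ms4a4c, F13a1 and Chil3 (49, 30, 91, 17, 109 and 412 barcodes by library) and the second by the border macrophage sum (753, 266, 50, 36, 283 and 188 barcodes). H2-Aa stood at 274 and 241 CPM in the monocyte gate of the healthy libraries and at 5681, 6051 and 4393 in the tumour ones. In border macrophages it stood at 74 and 79.6 CPM, then at 5759.9, 6839 and 4242. The Cd209a gate stood at 10191 and 7021 CPM in the healthy libraries and at 6674, 9912 and 8748 in the tumour ones. In each tumour library both other populations lay below it, and they came nearest in control tumour library 1. Of 4398 genes tested against the monocyte gate, 63 (1.43%) had a different tumour change, 27 (0.614%) with a larger and 36 (0.819%) with a smaller one in the Cd209a gate, against 50 and 35 with library size alone. Of 5764 against border macrophages, 50 (0.867%) differed, 0.156% with a larger and 0.711% with a smaller change.

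The tumour change of H2-Aa in the Cd209a gate minus that in the monocyte gate was −4.53 ± 0.27 (SE, edgeR adjusted p = 4.9e-05) on the log2 scale, and minus that in border macrophages −6.28 ± 0.33 (SE, edgeR adjusted p = 4.9e-06). For H2-Ab1, its partner chain, the differences were −5.14 ± 0.29 (SE, edgeR adjusted p = 4.9e-05) and −6.14 ± 0.49 (SE, edgeR adjusted p = 0.0041). For Cd74 they were −4.51 ± 0.37 (SE, edgeR adjusted p = 0.0023) and −5.21 ± 0.38 (SE, edgeR adjusted p = 5.8e-04). H2-DMb1, a subunit of the peptide exchange factor, differed by −3.65 ± 0.37 (SE, edgeR adjusted p = 0.0013) and −4.46 ± 0.55 (SE, edgeR adjusted p = 0.016). H2-Aa and H2-Ab1 kept their difference from the monocyte gate without either healthy library, and Cd74 kept its size but not its call. Against border macrophages H2-Aa, H2-Ab1 and Cd74 lost their call, though not their direction, when mixed members were removed. H2-DMb1 lost its call there under 4 alternatives, among them leaving out control tumour library 1 and leaving out Rbpj-deleted library 1. Neutrophil markers summed to 3149.5 CPM in the monocyte gate and 51.2 in the Cd209a gate, and whether the same kinds of cell make up the monocyte gate in healthy brain and tumours was not tested.

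**Figure D4:**
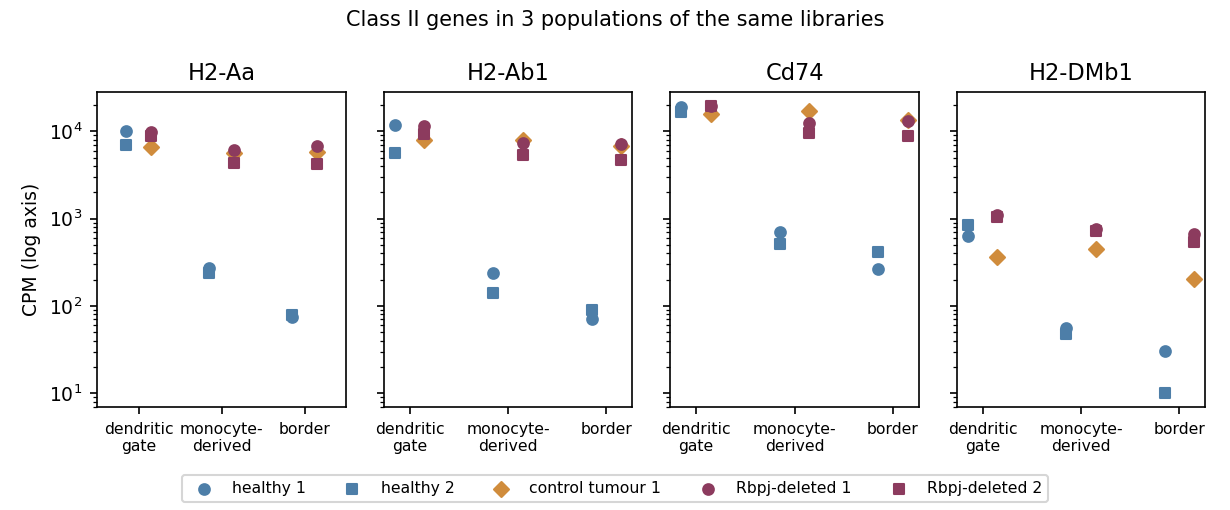
CPM (vertical log axis) of H2-Aa, H2-Ab1, Cd74 and H2-DMb1 in 3 populations of the same 5 libraries (horizontal axis), 1 point per library. Healthy and tumour libraries overlap in the dendritic gate for H2-Aa, while in the monocyte and border macrophage gates the healthy libraries lie at 274 and 241 and at 74.0 and 79.6 CPM, below all tumour ones.

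Genes that fell in tumours included glucocorticoid-induced ones. Of the 11 genes of that list tested, 6 fell and none rose, with a median of −1.85, against 3.76% and 2.6% over all genes. Without the 2 myelin-RNA members 6 of 11 also fell, where 91 of 5239 genes fell in all. The list summed to 2080 CPM in the gate, 4610 in border macrophages and 4674 in microglia. The part of mixed members in these falls was not tested. Mt2, a metallothionein, was at 79.1 and 68.7 CPM in healthy libraries and at 7.1, 4.13 and 5.82 in tumour ones (log2 fold change −3.49 ± 0.57, SE, adjusted p = 6.1e-04). Its neighbour Mt1 fell by 1.85 on the log2 scale, from 834 and 538 CPM to 149, 182 and 244. Without mixed members Mt1 lost its call, and for Rbpj-deleted against healthy its direction turned. Healthy levels of Mt1 and Mt2 lay above all tumour levels. Healthy and tumour libraries did not overlap for 34.2% of all genes tested. Fkbp5, a regulator of the glucocorticoid receptor, went from 169 and 86.6 CPM to 39, 18.6 and 20.4 (log2 fold change −2.10 ± 0.41, SE, adjusted p = 0.003). Tsc22d3, the leucine zipper protein GILZ, fell by 2.32 (adjusted p = 0.037), and Klf9 and Ddit4 fell by 2.42 and 2.58, calls that DESeq2 did not make. The call of Ddit4 also needed healthy library 2. Of the Klf9 UMIs in healthy members, 42.4% came from 1 barcode. Per1, another gene of the set, was at 50.3 and 41.8 CPM in healthy and 49.7, 37.2 and 34.9 in tumour libraries (adjusted p = 0.98). Of 22 genes of dissociation and stress, 2 fell and none rose, with a median of 0.002.

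Among lectins and Toll-like receptors, 3 of 17 fell and 1 rose over both tumour groups, against 3.76% and 2.6% over all genes. Mgl2 was at 2667 and 1383 CPM in healthy libraries, 216 in the control tumour library and 1269 and 1462 in the Rbpj-deleted ones (log2 fold change −1.80 ± 0.33, SE, adjusted p = 0.0015). The Rbpj-deleted libraries overlapped the healthy ones and did not pass against them (adjusted p = 0.64). Cd209b went from 356 and 272 CPM to 10.6, 2.07 and 29.1 (log2 fold change −4.56 ± 0.65, SE, adjusted p = 0.0053). Cd209d went from 428 and 508 to 56.8, 72.3 and 212 CPM (log2 fold change −2.31 ± 0.46, SE, adjusted p = 0.017). These 2 are close relatives of the gate marker Cd209a, which was itself highest in the healthy libraries, and reads may be split among the copies. Mgl2 and Cd209d lost their calls without mixed members, and Cd209d also with a marker sum of at least 6. Clec7a, the receptor for beta-glucan, rose by 1.47 ± 0.34 on the log2 scale (SE, adjusted p = 0.0098), a call lost when the library of 2 members was added.

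The largest fitted falls against healthy were of oligodendrocyte genes. Mal was at 1761 and 2932 CPM in the healthy libraries and at 7.1, 0 and 0 in the tumour ones, and Mog, Cldn11, Tubb4a and Olig1 were at 0 in all 3 tumour libraries. Over the 2 myelin-RNA members alone Mal was at 17619 CPM, and over the 89 class II members with little C1q at 0. Without those 2 members 205 genes were called in place of 386, 114 higher and 91 lower.

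Each tumour group was also set against the healthy libraries, which both share. For control tumour against healthy, 209 of 6066 genes passed (3.45%), 104 higher (1.71%) and 105 lower (1.73%). For Rbpj-deleted against healthy, 341 passed (5.62%), 180 higher (2.97%) and 161 lower (2.65%). The libraries of the compared groups did not overlap for 75.3% of genes in the first comparison, which has 1 library on one side, and for 47.7% in the second. Class I genes rose in 12 of 18 and 16 of 18, interferon-gamma genes in 10 of 20 and 18 of 20, and type I genes in 12 of 30 and 22 of 30. Cytokine and chemokine genes rose in 5 of 18 in Rbpj-deleted tumours. The 2 counts of calls do not compare the tumour groups, because the control group has 1 library and the direct comparison follows.

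Between Rbpj-deleted and control tumours, 54 genes passed (0.89%), 28 higher (0.462%) and 26 lower (0.429%) in Rbpj-deleted. DESeq2 called 16 higher and 6 lower. With 1 control library the groups did not overlap for 72.3% of genes. None of the 18 class I, 20 interferon-gamma or 30 type I interferon genes passed, with medians of 0.12, 0.49 and 0.55 against 0.03 over all genes, and DESeq2 called 0 of them too. At an unadjusted p under 0.05, 2, 4 and 5 of them differed in edgeR. Chemokines were among the genes that did. Ccl5 was higher by 4.26 ± 0.53 on the log2 scale (SE, adjusted p = 2.7e-04), at 81.6 CPM in the control tumour library and 1349 and 1541 in the Rbpj-deleted ones. In Rbpj-deleted members a Ccl5 UMI was present in 49 of 78 and in control tumour members in 5 of 20. Ccl12, a monocyte chemokine, was at 14.2 CPM in the control tumour library and 498 and 317 in the Rbpj-deleted ones (log2 fold change 4.92 ± 0.67, SE, adjusted p = 8.5e-04), and at 57.5 and 20.9 in healthy libraries. Ccl7, another monocyte chemokine, was at 3.55 CPM, then 114 and 110.5 (log2 fold change 4.96 ± 0.95, SE, adjusted p = 0.013). Ccl22, which draws regulatory T cells, was at 7.1 CPM, then 76.5 and 116 (log2 fold change 3.80 ± 0.79, SE, adjusted p = 0.021).

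Ccl12 and Ccl7 stood higher in the C1q members than in the others with class II. Ccl12 stood at 610.3 CPM in members with C1q and 22.7 in those without, and Ccl7 at 151 and 23.8. Ccl22 had the other order, with 19.1 and 71.4 CPM, and Ccl5 was highest in the 8 members with low class II, at 4039 CPM. The Rbpj-deleted libraries held 28 C1q members among 78 and control tumour library 1 held 1 among 18. Among the tumour libraries compared, the order by share of C1q members was also the order by Ccl12, and so it was between the healthy libraries. Across healthy and tumour it was not. Healthy library 1, with 9 of 28, had Ccl12 at 57.5 CPM and Rbpj-deleted library 2, with 8 of 36, at 317. C1qa itself was higher by 2.98 ± 0.52 on the log2 scale (SE). The 10 macrophage markers had a median log2 fold change of 1.85, against 0.03 over all genes. The summed macrophage markers were 2008 CPM in control tumour library 1, 11805 and 9350 in the Rbpj-deleted and 7632 and 3613 in the healthy libraries, with none of the 10 at 0. Their part in the chemokine differences was not tested. Ccl12 kept its call under every alternative that gave one. Ccl5 lost its call with a term for the library split, Ccl7 under DESeq2, and Ccl22 under 5 alternatives, DESeq2 among them.

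Other differences between the tumour groups were in plasmacytoid, endothelial and lectin genes. Siglech (log2 fold change −2.41 ± 0.44, SE, adjusted p = 0.0092), Tcf4 (log2 fold change −1.92 ± 0.39, SE, adjusted p = 0.018) and Irf8 (log2 fold change −2.27 ± 0.53, SE, adjusted p = 0.049), regulators and markers of plasmacytoid cells, were lower in Rbpj-deleted members. The call of Irf8 was lost under 7 alternatives and its direction turned without mixed members. A Siglech UMI was present in 5 of 20 control tumour and 12 of 78 Rbpj-deleted members. Siglech is also among the microglia markers. The 5 control ones were all plasmacytoid-RNA members of control tumour library 1, while most of the Rbpj-deleted ones were class II members with C1q. The plasmacytoid markers summed to 1891 CPM in control tumour library 1 with 1 of 10 at 0 (Ccr9, at 0 in all members), and to 238 and 270 in the Rbpj-deleted libraries with 5 and 3 at 0. The largest falls, Cxcl12 and Cldn5, came with 100% of the control tumour UMIs in 1 barcode of endothelial RNA. Mgl2 was higher in Rbpj-deleted members by 2.78 ± 0.50 on the log2 scale (SE, adjusted p = 0.0082) and the lectin Clec4n by 2.94 ± 0.56 on the log2 scale (SE, adjusted p = 0.013), and both lost their call without mixed members. A UMI of Mgl2 was present in 12 of 20 control tumour and 56 of 78 Rbpj-deleted members.

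**Figure D5:**
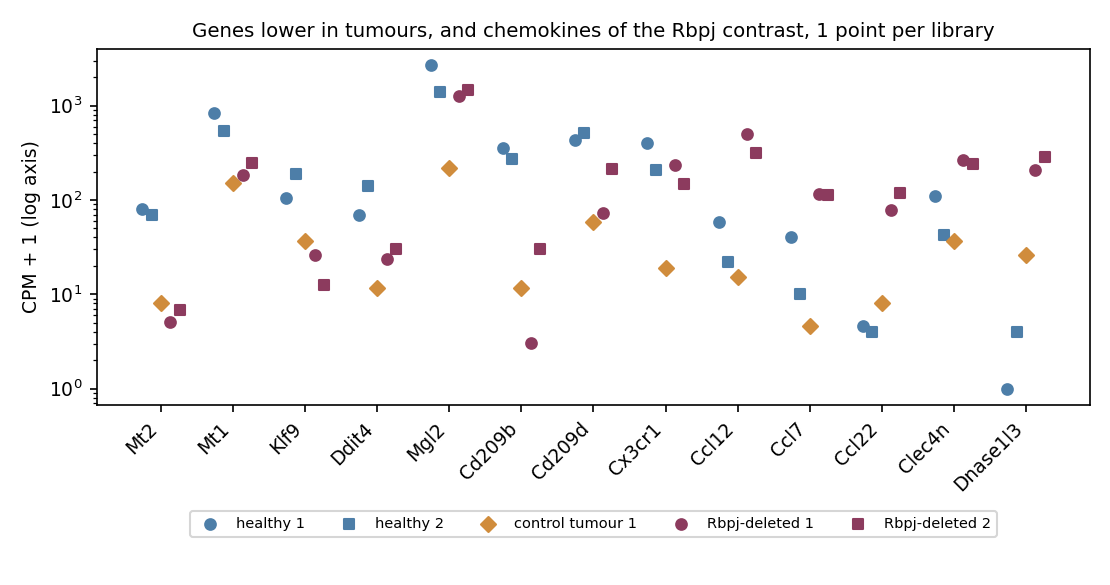
CPM + 1 (vertical log axis) of 13 genes (horizontal axis) in the summed members of each of 5 libraries, 1 point per library. Mt2, Mt1, Klf9 and Ddit4 are lower in all 3 tumour libraries than in both healthy ones, and Ccl12, Ccl7 and Ccl22 are lower in the control tumour library than in both Rbpj-deleted ones.

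Rbpj is the DNA-binding factor through which Notch receptors act on transcription, and Notch2 signalling supports type 2 dendritic cells in the spleen. The labels place the deletion in the tumours. In the members Rbpj (chr5:53466152-53657362, plus strand, mm10) was at 108 and 143 CPM in healthy libraries, 103 in the control tumour library and 136 and 64 in the Rbpj-deleted ones. The Rbpj-deleted libraries lay on both sides of the control one, with a difference of 0.10 ± 0.48 on the log2 scale (SE, adjusted p = 0.98). A 3' tag may lie outside the deleted exons, so this level does not check the deletion. Of 11 Notch pathway genes tested, none passed in edgeR or DESeq2, whether both tumour groups were set against healthy (median −0.23) or against each other (median 0.12). At an unadjusted p under 0.05, 2 were lower against healthy and 0 differed between tumour groups. Notch2 was at 191 and 185 CPM in healthy, 209 in control and 194 and 110.5 in Rbpj-deleted libraries (adjusted p = 0.91 between tumour groups). The target Hes1 was at or under 16.5 CPM in all 5 libraries and was not tested.

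Of 20 dendritic transcription factors, 2 rose and 1 fell against healthy. Over all genes tested, 2.6% rose and 3.76% fell, for this list and the others of this paragraph alike. A fall of 1 gene in lists of 19 to 22 lies near the latter share. Nfil3 rose by 1.86 ± 0.40 on the log2 scale (SE, adjusted p = 0.0057) and Ahr by 2.26 ± 0.55 on the log2 scale (SE, adjusted p = 0.017), and Egr1 fell by 1.41, a direction that turned without mixed members. Nfil3, Ahr and Egr1 were not called by DESeq2, nor was Nfil3 without healthy library 2, Ahr without Rbpj-deleted library 1 or Egr1 without healthy library 1. Irf4, the factor most tied to this branch, was at 61.1 and 56.7 CPM in healthy, 39 in control and 68.2 and 20.4 in Rbpj-deleted libraries (adjusted p = 0.73). Of 19 cell cycle genes, 1 fell (Stmn1) and none rose, and the fall was lost without the myelin-RNA members. Of 22 growth factor receptor and migration genes, 1 fell, Cx3cr1, which reversed when mixed members were removed. Of 13 hypoxia and glycolysis genes, Pfkp rose by 1.59 ± 0.33 on the log2 scale (SE, adjusted p = 0.0042) and Ndrg1 fell by 2.21. DESeq2 called neither, and Ndrg1 lost its call without healthy library 2.

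Against the other populations of the same libraries the gate was described gene by gene. Both sides were chosen by their RNA, so the counts of genes called describe how far the rules part the populations and test nothing beyond that. The genes of the rules stayed out. Against the monocyte gate 498 of 4398 genes passed (11.3%), 5.75% higher and 5.57% lower in the gate. Against border macrophages 1734 of 5764 passed (30.1%), 15.2% higher and 14.9% lower, and against type 1 and Ccr7 dendritic cells 537 of 4047 (13.3%), 5.76% higher and 7.51% lower. For the last, 233 were higher and 304 lower, against 72 and 155 with DESeq2 and 314 and 261 with library size alone. Lmo1, a LIM-domain protein, was higher in the gate by 3.58 ± 0.25 on the log2 scale than in the monocyte gate and by 6.44 ± 0.28 than in border macrophages, in 5 of 5 libraries each. Dpp4 was higher by 2.92 ± 0.43 and 6.19 ± 0.44, and Cd24a by 2.98 ± 0.30 and 4.80 ± 0.44. H2-DMb2, a class II peptide exchange subunit, was higher by 2.45 ± 0.31 and 3.87 ± 0.37, also in 5 of 5 libraries. Irf4 was higher by 2.25 ± 0.24 than in border macrophages, and Rbpj by 1.49 ± 0.25 than in the monocyte gate. The level of Rbpj was like that of border macrophages, with 64 to 143 CPM in the gate and 54.9 to 140 in border macrophages by library. Genes lower in the gate were Treml4 (log2 difference −4.01 ± 0.49), Thbs1 (−3.79 ± 0.45) and Clec4e (−2.96 ± 0.34) against the monocyte gate.

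The comparison with type 1 and Ccr7 dendritic cells used 3 tumour libraries, since the healthy ones held 1 such barcode each. The log2 difference, gate minus the other cells, was −5.26 ± 0.31 (SE) for Il12b, a subunit of interleukin-12, −4.68 ± 0.46 for the endocytic receptor Ly75 and −2.85 ± 0.26 for Relb, a factor of dendritic maturation. Il12b was at 9.53 CPM in the gate and 377 in the other cells. For Ccl5 it was −3.18 ± 0.36. The gate was higher in the inhibitory receptor Clec4a2 by 2.61 ± 0.32, in Clec10a by 2.54 ± 0.49, in Sirpa, which marks the type 2 branch, by 1.19 ± 0.21 and in Itgax by 1.24 ± 0.23. H2-Aa was at 8445 and 7190.1 CPM and was not called. Retnla, a secreted protein of alternatively activated myeloid cells, was at 1505 CPM over all members and 5.25 in the monocyte gate, but a UMI of it was present in only 17 of 53 healthy, 4 of 20 control tumour and 14 of 78 Rbpj-deleted members. The highest member held 45.2%, 76.0% and 37.3% of it in those groups.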

How the data were processed

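The authors deposited 1 table of UMI counts per gene and barcode for 6 10x 3' v3 libraries. Per the submitters' processing notes, it was made with kallisto 0.46.0 and bustools 0.39.3 on mm10. These whole-number counts were used as deposited, with 27359 named genes. Barcodes with under 500 genes or over 10% mitochondrial counts (17) and copies from another library (256) were removed. No doublet caller was run, and barcodes with 3 or more UMIs of another lineage were removed as an alternative.

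Members' counts were summed per library (at least 5 members) and tested with edgeR 4.0.16 in R 4.3.3 (quasi-likelihood test, TMM scaling, Benjamini-Hochberg adjusted p under 0.05, 5 libraries, 2 residual degrees of freedom). The contrast of both tumour groups weights them equally. DESeq2 1.42.0 was an alternative. Standard errors were derived from the edgeR test, as the absolute log2 fold change over the square root of the quasi-likelihood F statistic. They are uncertain for genes with few UMIs on one side. CPM are counts scaled to 1e+06 summed member counts. Shares were compared by exact permutation.

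Named genes were, per comparison, up to 10 rises and 10 falls past the threshold with at least 20 CPM and groups of libraries that did not overlap, up to 4 genes of smallest p per list, the 5 gate markers and Rbpj. Other list genes given with values (Il1b, Hes1, Erap1, Itgax, Sirpa), as well as Trem2, Ccl8, C1qa, Siglech and Tcf4, were added after their values were seen. Members and lists were chosen with earlier results of these data known. Copies within the Cd209, class I, Serpina3, Gbp, Ifi200 and Mt families may share reads, and their values are uncertain. Intervals cover counting error only. Sequences are from RefSeq, GRCm38.p6, and gene coordinates from GENCODE on mm10.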

Additional observations from a re-analysis of the deposited data

Results flagged for a closer look

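The results here differed between cell populations of the same libraries, by a test of the difference itself (edgeR's interaction term, adjusted over all genes tested). Each value is the tumour change of the Cd209a gate minus that of the other population, on the log2 scale.

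Class II genes changed less in the gate than in the monocyte gate. The difference was −5.14 ± 0.29 (SE, edgeR adjusted p = 4.9e-05) for H2-Ab1, −4.53 ± 0.27 (SE, edgeR adjusted p = 4.9e-05) for H2-Aa, −4.93 ± 0.40 (SE, edgeR adjusted p = 6.5e-04) for H2-Eb1, −4.51 ± 0.37 (SE, edgeR adjusted p = 0.0023) for Cd74 and −3.65 ± 0.37 (SE, edgeR adjusted p = 0.0013) for H2-DMb1. Against border macrophages it was −6.28 ± 0.33 (SE, edgeR adjusted p = 4.9e-06) for H2-Aa, −6.14 ± 0.49 (SE, edgeR adjusted p = 0.0041) for H2-Ab1, −5.90 ± 0.32 (SE, edgeR adjusted p = 5.8e-07) for H2-Eb1, −5.21 ± 0.38 (SE, edgeR adjusted p = 5.8e-04) for Cd74 and −4.46 ± 0.55 (SE, edgeR adjusted p = 0.016) for H2-DMb1. H2-Eb1 also split the libraries across the groups, and the part of that split in its values was not tested. Cd74 lost its call against the monocyte gate without either healthy library. Against border macrophages H2-Aa, H2-Ab1, H2-Eb1 and Cd74 lost theirs without mixed members.

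Other genes changed more in the gate. Ly6a, a surface protein induced by interferon, differed by 4.07 ± 0.44 (SE, edgeR adjusted p = 0.0013), with 18 and 0 CPM in the healthy and 1394, 347 and 366 in the tumour libraries of the gate. In the monocyte gate the healthy libraries were far apart, at 393 and 3.44 CPM, against 1347, 499 and 450.3 in tumours. The call was lost without healthy library 1. Fcgr4, an activating receptor for IgG, differed by 3.52 ± 0.40 (SE, edgeR adjusted p = 0.0016), with mean levels of 9.87 to 149 CPM in the gate against 264 to 312 CPM in the monocyte gate from healthy to tumour. Flt1, a receptor for vascular growth factors, differed by 7.02 ± 0.68 (SE, edgeR adjusted p = 6.5e-04), with 1.8 to 59.7 CPM in the gate against 337 to 74 CPM, so that its level in the monocyte gate was lower in tumours. The healthy libraries of the gate stood at 3.6 and 0 CPM of Flt1, near the floor, so the size of its difference is uncertain. Against border macrophages, Ifi204 differed by 2.46 ± 0.33 (SE, edgeR adjusted p = 0.0033), with 27.8 to 241 CPM in the gate against 182 to 269 CPM. Rtp4, a type I interferon response gene, differed by 2.74 ± 0.38 (SE, edgeR adjusted p = 0.0041), with 23.9 to 168 CPM in the gate against 145 to 152 CPM. Ms4a6c differed by 1.63 ± 0.26 (SE, edgeR adjusted p = 0.0095), with 122 to 349 CPM in the gate against 446 to 382 CPM. Ifi204 and Rtp4 lost their call without healthy library 2, and Ms4a6c without either healthy library or Rbpj-deleted library 1.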

How the results depend on the processing

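Genes called numbered 209 for control tumour against healthy, 341 for Rbpj-deleted against healthy, 54 between tumour groups and 386 for both against healthy. In that order DESeq2 called 95, 153, 22 and 159. No filter on low counts gave 463, 656, 151 and 741. A term for the library split gave 330, 597, 99 and 690, and removing mixed members 462, 613, 27 and 671. A marker sum of at least 6 gave 155 for Rbpj-deleted and 184 for both tumour groups against healthy (118 higher, 66 lower). Without the myelin-RNA members the same 2 counts were 186 and 205 (114 higher, 91 lower). Fitting only the groups compared gave 430 for control tumour against healthy and 169 between tumour groups. Between tumour groups, library size alone gave 31, and leaving out myelin, plasmacytoid and low class II members 82. For populations, DESeq2 called 227 genes against type 1 and Ccr7 dendritic cells. Removing mixed members gave 82 against the monocyte gate, 599 against border macrophages, 194 against type 1 and Ccr7 dendritic cells and 100 for the difference in tumour change from the monocyte gate, which was 36 without the myelin-RNA members. Leaving out 1 library at a time gave 281 to 472, 295 to 567, 92 to 179 and 329 to 576 for the 4 group contrasts. It gave 227 to 414 against the monocyte gate, 1293 to 1834 against border macrophages and 297 to 610 against type 1 and Ccr7 dendritic cells. The differences in tumour change gave 17 to 69 (monocyte gate) and 19 to 131 (border macrophages). No control contrast is left without control tumour library 1 or with at least 20 members per library. The difference in share between control tumour and healthy was −0.1299 percentage points after thinning to 3000 counts and −0.4149 to 0.7923 without 1 library. Between tumour groups it was −0.0036 to 1.2037. Thinned, the share was 0.0% in control tumour library 2 and 0.7746% in Rbpj-deleted library 1. Removing mixed members left 0.0696% and 0.3876% (healthy), 0.6541% (control 1) and 0.6291% and 0.7729% (Rbpj-deleted).

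With a replicate block, 389 genes were called for both tumour groups against healthy. Libraries of the same number did not deviate together (correlation −0.031 over 6066 genes), so the numbers are not shown to pair them. Of 5267 alternative values of 421 gene results, 4573 kept direction and call, 685 kept direction only and 9 reversed, where the cause was not tested. Removing mixed members gave Cx3cr1 0.14 for control tumour and 1.8 for both tumour groups against healthy, Egr1 0.54 for both, Mt1 0.63 for Rbpj-deleted against healthy, and Irf8 0.35, Cd59a 2.06 and Prkca 0 between tumour groups. Stmn1 was 0.06 (control tumour) and 0.01 (both) without myelin, plasmacytoid and low class II members. With library size alone the median log2 fold change of all genes was −0.17 for Rbpj-deleted against healthy, where it was −0.02 with TMM. The control tumour arm rests on 18 barcodes of 1 library, which limits every contrast with it.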
